A study of Caenorhabditis elegans with 12 samples.

Results

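The ttr genes of Caenorhabditis elegans encode proteins related to transthyretin, and they were followed here as a family in whole first-stage (L1) larvae. Members were chosen by name alone, as every gene whose symbol in the array's annotation is ttr followed by a number and that has a probe set assigned to no other gene. This gave 40 genes on 41 probe sets, out of 17118 genes with a probe set of their own and out of 59 ttr genes in the RefSeq gene table. A further 6 ttr genes appear only on 3 probe sets that name 2 genes each, and the remaining 13, ttr-33 among them, were not analysed here. The members were not selected on any measured value, but the family was proposed with earlier results of these arrays known, the signals and differences below among them. The tests below therefore describe the spread between these samples and are not independent evidence that the family is special.

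Transthyretin carries thyroid hormone and retinol-binding protein in the blood of vertebrates, and its fold is thought to descend from an enzyme of purine breakdown, 5-hydroxyisourate hydrolase. Nematodes carry a large expansion of transthyretin-related genes, most of which are predicted to encode small secreted proteins that pass through the endoplasmic reticulum (ER) and have no assigned function. An exception is TTR-52, which bridges phosphatidylserine exposed on dying cells to the engulfment receptor CED-1. Another is TTR-33, which has been linked to protection of dopaminergic neurons from oxidative damage.

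The 4 groups, each of 3 arrays, were manf-1(tm3603) mutants with tunicamycin, the same mutants with vehicle (DMSO), wild-type N2 larvae with tunicamycin, and N2 with vehicle. The manf-1 gene encodes the worm relative of the mammalian neurotrophic factors MANF and CDNF, which reside in the ER and can be secreted. Tunicamycin blocks the start of N-linked glycosylation and so stresses the ER. In all groups, eggs hatched on plates without bacteria, larvae were washed off 24 h after plating as a synchronized L1 population, and treatment lasted 5 h in M9 buffer. The labels agree on the number 5 for the dose and disagree on its unit, with ug per mL in one place and ug per uL in another. No probe set of its own was found for manf-1, so the genotype labels were not checked on it. The labels do not say that replicates were separate cultures, so p-values measure only the spread between these samples. With 3 arrays a group, precision is limited by their number.

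All values below are on the log2 scale of the deposited Affymetrix signals. Arrays of the same group had Spearman correlations between 0.917 and 0.956. The 4 arrays numbered 2 stood apart in how signal was distributed along transcripts. Averaged over 5 control transcripts, 3′ minus 5′ signal lay between -0.32 and -0.20 on those arrays, against 0.02 to 0.38 on the other 8. Calls of ttr genes are therefore also given without them, while the calls of ER genes below are not. The ER response was present in both genotypes. A gene passed where its adjusted p, over all 14709 probe sets kept by a filter on dim signal, was under 0.05. Of 10 measured ER chaperones and folding enzymes, 8 passed as higher with tunicamycin in mutants and 8 in wild type. Among all 10844 tested genes, 75 and 41 did. The change of hsp-4, a BiP homologue, was 3.57 in mutants (limma adjusted p = 3.34e-05) and 3.22 in wild type (adjusted p = 0.000142). Whole larvae were sampled, so fewer cells of a type and less RNA per cell cannot be told apart. All measured markers of body wall muscle (6), neurons (7), hypodermis (9) and intestine (8) were above background on average. So were 5 of 6 pharynx, 2 of 4 glial and 3 of 6 germline and adult markers.

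The larvae had signal well above background for most of the family. Background was set by 32 control probe sets for bacterial and yeast transcripts, whose median was 2.23; their 95th percentile, 3.34, is called background below. Of the 40 genes, 32 passed the filter on dim signal, which asks for a value above the array's 40th percentile on at least 3 arrays. Of these, 27 exceeded the background percentile on all 12 arrays. The other 5, ttr-8, ttr-27, ttr-28, ttr-29 and ttr-50, exceeded it on only some arrays. The 8 that did not pass were ttr-9, ttr-12, ttr-13, ttr-14, ttr-19, ttr-22, ttr-52 and ttr-56, and 7 of them were at or below background on all 12 arrays. Signals of different probe sets cannot be ranked against each other, because each binds its transcript with its own strength.

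**Figure D1:**
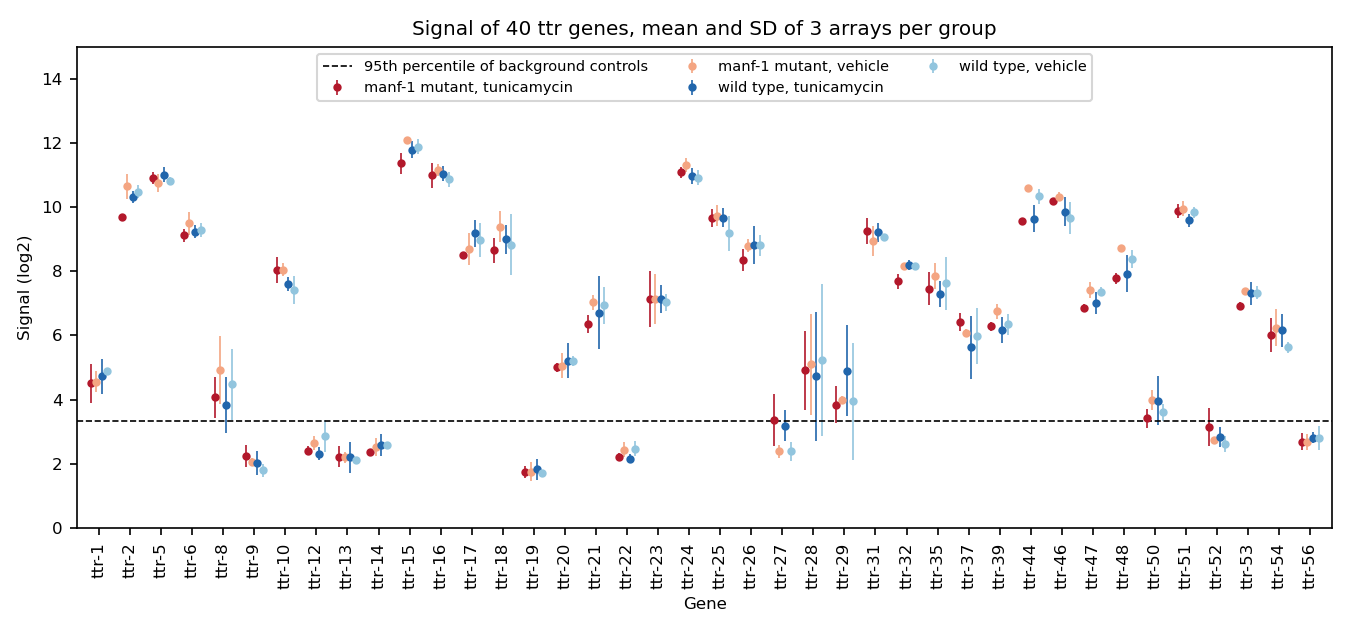
Mean log2 signal with SD of 3 arrays for each of 40 ttr genes (horizontal axis) in manf-1 mutants with tunicamycin, mutants with vehicle, wild type with tunicamycin and wild type with vehicle. The dashed line is the background controls' 95th percentile, 3.34, and the 8 genes that did not pass the filter lie below it in all 4 groups.

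The engulfment bridge ttr-52 is one of those at background. Its signals were 3.65, 2.50 and 3.26 in mutants with tunicamycin, against 2.66, 2.78 and 2.74 in mutants with vehicle. In wild type they were 2.80, 3.14 and 2.53 with tunicamycin, against 2.79, 2.70 and 2.34 with vehicle. A single array, the first of the treated mutants, was above the background percentile, so no level or difference of ttr-52 was measured.

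Other members were above background on all 12 arrays, such as ttr-15, which had 11.76, 11.17 and 11.21 in mutants with tunicamycin, 12.09, 12.18 and 12.06 in mutants with vehicle, 11.81, 11.54 and 12.05 in wild type with tunicamycin and 11.64, 12.12 and 11.93 in wild type with vehicle. The same held for ttr-24, ttr-16, ttr-5, ttr-2 and ttr-44, whose signals lay between 9.23 and 11.49 over all 12 arrays. The spread between replicates differed widely among members. The pooled within-group SD had a median of 0.35 over the 32 tested genes, with 0.15 for ttr-32 and 1.85 for ttr-28. The probe set of ttr-28 read 3.91, 3.26 and 7.005 in wild type with tunicamycin and 2.51, 6.29 and 6.90 in wild type with vehicle; the 95% interval of its tunicamycin difference in wild type ran from -3.04 to 2.02. Its chromosomal neighbour ttr-29 and the unlinked ttr-8 had SDs of 1.19 and 0.94.

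In manf-1 mutants, tunicamycin against vehicle asks how the family behaves under ER stress when MANF-1 is missing. Of the 32 tested genes 1 passed the threshold: ttr-44, whose product has no assigned function, with a signal about 2-fold lower. Signals of ttr-44 were 9.59, 9.50 and 9.65 in mutants with tunicamycin, against 10.62, 10.60 and 10.62 in mutants with vehicle. The treated arrays all lie below the vehicle arrays, with a gap far wider than the spread within either group. The log2 change was -1.04 (SE 0.22, 95% interval -1.52 to -0.56, limma adjusted p = 0.0412), which is 2.05-fold lower. The call was past the threshold in 11 of 23 alternative settings: leaving out any 1 of the 6 mutant arrays ended it (adjusted p between 0.114 and 0.153), as did leaving out the arrays numbered 2 (0.114), no filter (0.0631) and no variance trend (0.158), while the change stayed between -1.07 and -0.996. Without the wild-type treated array 3, vehicle array 1 or vehicle array 3, which enter through the shared estimate of the spread, the adjusted p was 0.0522, 0.0624 and 0.0543. Among all tested genes, 1.13% passed in this comparison and 0.443% passed as lower, against 1 of 32 members, so the result is that of a single gene. The probe set of ttr-44 carries the array maker's suffix for probes that can match more than 1 transcript, although the annotation lists a single gene for it. The same suffix is on the probe sets used for ttr-15, ttr-18, ttr-24, ttr-50 and ttr-51.

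**Figure D2:**
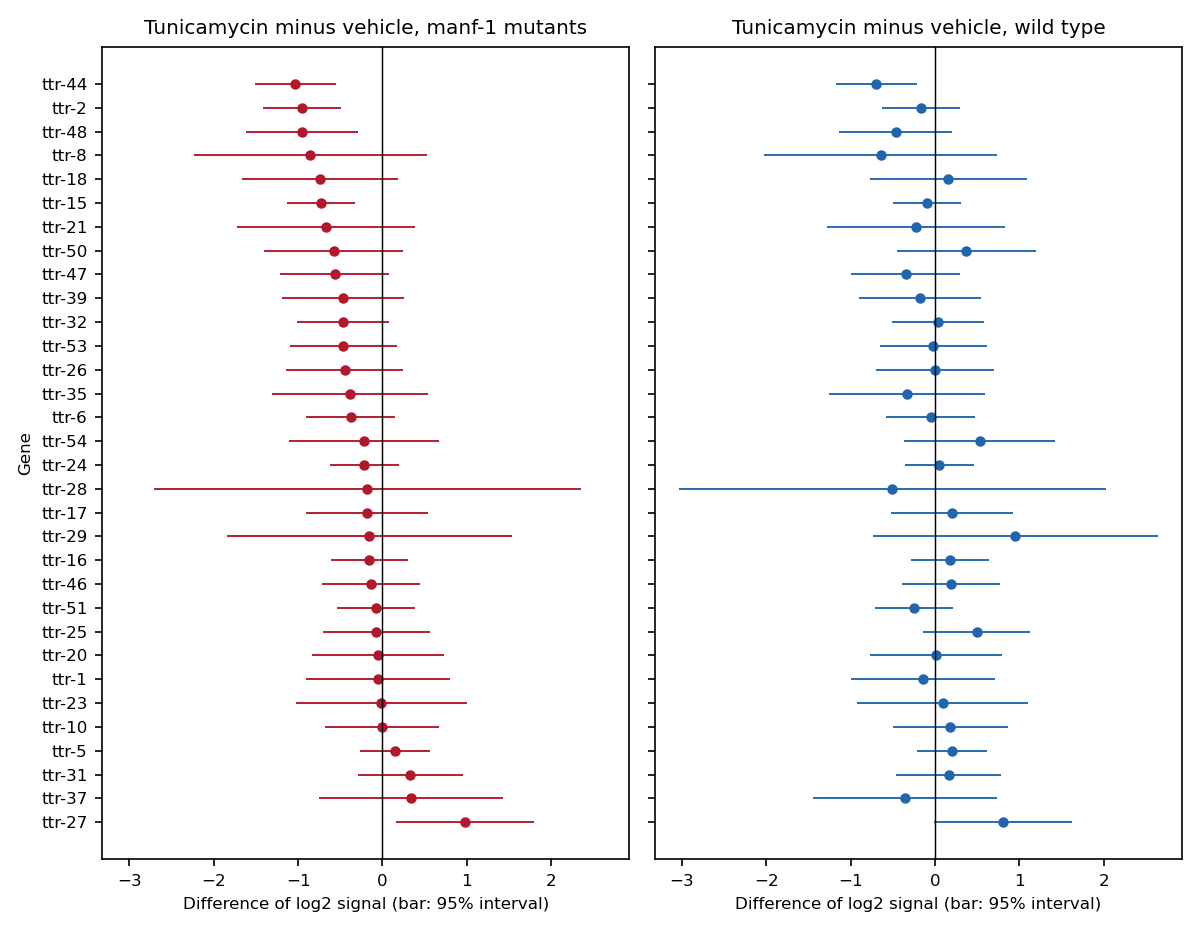
Difference of log2 signal, tunicamycin minus vehicle, for the 32 tested ttr genes in manf-1 mutants (left) and wild type (right), in the order of the mutant differences. Points are limma estimates and bars their 95% intervals. In mutants 28 of 32 points lie left of 0, against 15 of 32 in wild type.

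The other members with differences of similar size in mutants did not pass. The signal of ttr-2 was 9.68, 9.69 and 9.70 with tunicamycin, against 10.59, 11.06 and 10.29 with vehicle, so the treated arrays were all lower. Its difference was -0.96 (SE 0.22, interval -1.42 to -0.49), with a limma adjusted p of 0.0524, just over the threshold of 0.05. For ttr-15 the difference was -0.73 (SE 0.19, adjusted p = 0.103). Its treated mutant arrays also lie below the vehicle ones. The signal of ttr-48 was 7.81, 7.95 and 7.59 in mutants with tunicamycin, against 8.81, 8.66 and 8.75 in mutants with vehicle. Its groups do not overlap either, with a difference of -0.96 (SE 0.31, adjusted p = 0.251). The differences of ttr-8 at -0.86 and ttr-18 at -0.74 are of similar size with overlapping groups, and their adjusted p-values were 0.813 and 0.709.

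In the opposite direction, ttr-27 had 3.61, 2.44 and 4.04 in mutants with tunicamycin, against 2.18, 2.41 and 2.57 in mutants with vehicle. All 3 vehicle arrays are within background, so this difference of 0.98 (SE 0.38, adjusted p = 0.414) has no measured lower level. Only treated arrays brought ttr-27 past the filter on dim signal. Its p-values here and below are therefore no evidence of a rise. The next largest positive differences were 0.34 for ttr-37, 0.33 for ttr-31 and 0.15 for ttr-5, with adjusted p-values of 0.862 or more.

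**Figure D3:**
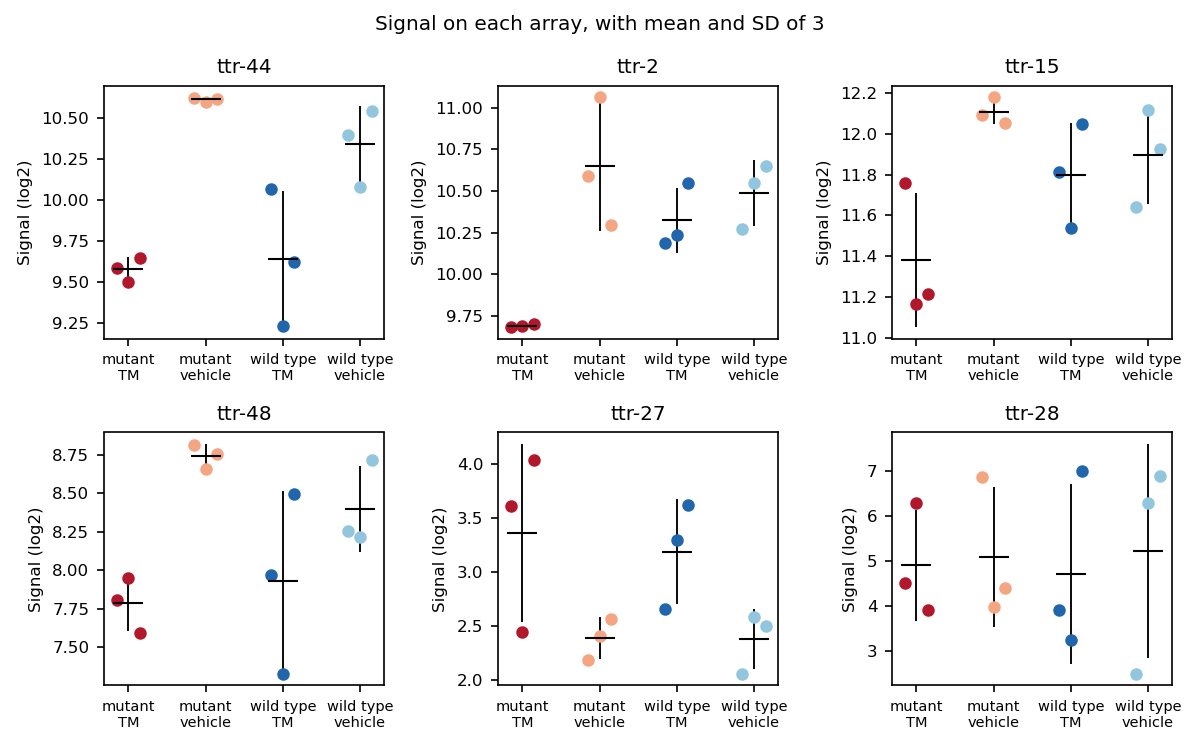
Log2 signal on each array (points) with mean and SD of 3 (black) for ttr-44, ttr-2, ttr-15, ttr-48, ttr-27 and ttr-28 in the 4 groups; each panel has its own vertical range, which does not start at 0. For the first 4 genes the treated mutant arrays lie below all mutant vehicle arrays, while the groups of ttr-28 overlap throughout.

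The remaining members whose groups do not overlap had smaller differences. The signal of ttr-47 was 6.89, 6.71 and 6.94 in mutants with tunicamycin, against 7.19, 7.69 and 7.35 in mutants with vehicle, a difference of -0.56. For ttr-32 it was 7.61, 7.95 and 7.51, against 8.18, 8.13 and 8.16, a difference of -0.47 (adjusted p = 0.664). The treated arrays of ttr-32 were more scattered than the vehicle ones.

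The values of ttr-39 were 6.21, 6.18 and 6.45 in mutants with tunicamycin, against 6.68, 6.55 and 7.02 in mutants with vehicle, a difference of -0.47. Those of ttr-53 were 6.86, 7.05 and 6.82, against 7.41, 7.28 and 7.44, a difference of -0.46. For ttr-21 the difference was -0.67 (adjusted p = 0.804), and in wild type its arrays ran from 5.93 to 8.01 with tunicamycin, against 6.28 to 7.35 with vehicle. For ttr-50, whose signal was near background on several arrays, it was -0.58 (adjusted p = 0.769).

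As a family, the 40 genes leaned downward from vehicle to treated mutants. Their mean signal was 6.56 in treated and 6.79 in vehicle mutants, on either side of 6.65 in each wild-type group. Of all 40, without any filter, 32 had a difference below 0, which is 80%, against 52.3% of all 17118 genes. Their median difference was -0.18, against -0.02 over all genes. Groups did not overlap for 10 genes, 25% of the 40, and in each of these the treated arrays were lower: ttr-2, ttr-15, ttr-21, ttr-32, ttr-39, ttr-44, ttr-47, ttr-48, ttr-50 and ttr-53. Among all genes 7.79% were lower without overlap and 6.45% higher, while 0 of the 40 were higher. By limma, 5 of the 32 tested members had an unadjusted p under 0.05, which 9.2% of all tested genes had. The 5 include ttr-27, whose difference was positive. All these values describe a family proposed with results known and carry no test of their own.

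The lean was uneven over arrays. The median deviation of the 40 genes from their own 12-array means was -0.02, -0.20 and -0.20 in mutants with tunicamycin, against 0.24, 0.17 and -0.05 in mutants with vehicle. The treated array 1 and the vehicle array 3 overlap in this measure, so the groups are not apart on every array. In wild type it was 0.00, -0.23 and 0.25 with tunicamycin, against -0.08, -0.04 and 0.09 with vehicle. Without the arrays numbered 2, the groups of 15 of the 40 genes were lower without overlap, against 20.3% of all genes, in what is then a comparison of pairs of arrays.

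**Figure D4:**
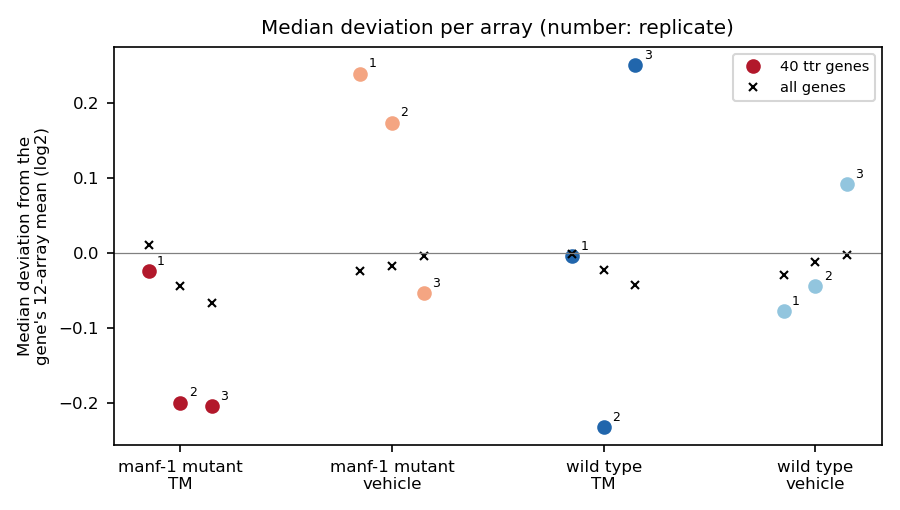
Median over 40 ttr genes of the deviation from each gene's 12-array mean (coloured points, log2, labelled by replicate number) and the same over all genes (crosses), per array and group. Treated mutant arrays lie between -0.20 and -0.02 and mutant vehicle arrays between -0.05 and 0.24, and wild type with tunicamycin spans -0.23 to 0.25.

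Of the marker lists, intestine and hypodermis had the most negative median differences in mutants with tunicamycin, at -0.79 and -0.70. The other lists had medians nearer 0 or above it. Neuron markers had 5 of 7 differences below 0 (median -0.14) and pharynx markers 4 of 6 (median -0.06). Glia had 2 of 4 below 0 (median 0.02), body wall muscle 2 of 6 (median 0.04), and germline and adult markers 1 of 6 (median 0.36). The mean signal of 8 intestine markers was between 6.77 and 6.996 in mutants with tunicamycin, against 7.31 to 7.52 in mutants with vehicle. Of the 8 differences 6 were below 0. For 9 hypodermis markers the mean was between 7.34 and 7.71, against 7.61 to 8.58, with 9 of 9 below 0. In both lists 0 passed the threshold, where 1.13% of all tested genes did. Without overlap, 5 of 8 intestine and 4 of 9 hypodermis markers were lower, against 7.79% of all genes. An unadjusted p under 0.05 by limma was found for 5 of 8 and 3 of 9, against 9.2% of all tested genes. In wild type the intestine markers lay between 6.91 and 7.28 with tunicamycin, against 7.27 to 7.66 with vehicle, and the hypodermis markers between 7.77 and 8.13, against 8.14 to 8.70. There 7 of 8 intestine and 8 of 9 hypodermis differences were below 0, against 17 of the 40 ttr genes. Averaged over genotypes, 1 of 8 intestine and 0 of 9 hypodermis markers passed the threshold, against 2.02% of all tested genes. The difference between 3′ and 5′ signal of 5 named worm control transcripts was between 1.23 and 1.85 in treated mutants, against 0.69 to 1.41 in vehicle mutants, and between 1.17 and 1.69 in treated wild type, against 1.26 to 1.56 in vehicle wild type. The part of these shifts in the ttr values was not tested.

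In wild type, the same comparison gave 0 of 32 ttr genes past the threshold by limma, against 0.397% of all tested genes, with 1 at an unadjusted p under 0.05 (background 8.04%). That gene was again ttr-44, with 10.07, 9.23 and 9.62 with tunicamycin, against 10.40, 10.08 and 10.54 with vehicle. Its groups nearly touch without overlapping, and the difference of -0.70 (SE 0.22, interval -1.18 to -0.22) had an adjusted p of 0.384. The value of ttr-48 was -0.47 (adjusted p = 0.784) and that of ttr-2 -0.17 (interval -0.63 to 0.30, adjusted p = 0.906), while ttr-15 had -0.10 (interval -0.50 to 0.31, adjusted p = 0.95).

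On the positive side in wild type, ttr-27 read 2.65, 3.30 and 3.62 with tunicamycin, against 2.06, 2.58 and 2.50 with vehicle. Its treated arrays were all higher, by 0.81 on average (SE 0.38, adjusted p = 0.631), and 1 of them was above background. The values for ttr-29, ttr-54 and ttr-25 were 0.95, 0.53 and 0.49, with overlapping groups and adjusted p-values of 0.738 or more. The family as a whole showed no lean here: 17 of the 40 differences were below 0, 42.5%, against 51.6% of all genes, with a median of 0.01 against -0.01. Groups did not overlap for 2 as lower, ttr-44 and one below the filter, against 5.57% of all genes, and for 1 as higher, against 5.32%.

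Averaged over both genotypes, which sets 6 treated against 6 vehicle arrays, ttr-44 fell by 0.87 on the log2 scale (SE 0.16, interval -1.21 to -0.53, limma adjusted p = 0.0101), a 1.82-fold lower signal. The highest treated array, at 10.07, was just below the lowest vehicle array, at 10.08. No other member passed, where 2.02% of all tested genes did and 0.83% as lower. Treated and vehicle arrays did not overlap for 1 of the 40 genes, ttr-44, against 0.555% of all genes as lower. An unadjusted p under 0.05 was found for 5 of the 32 tested members, against 11.5% of all tested genes. The 5 include ttr-27, whose change was positive. The averaged values of ttr-2, ttr-48, ttr-15 and ttr-27 were -0.56, -0.71, -0.41 and 0.89, with adjusted p-values of 0.0935, 0.161, 0.188 and 0.148. Without the arrays numbered 2 the averaged change of ttr-44 was -0.81 (adjusted p = 0.0437) and that in mutants -1.003 (adjusted p = 0.114), so the averaged call held and the mutant one did not.

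Whether tunicamycin acted differently on the family in the 2 genotypes was tested by the interaction, the change in mutants minus the change in wild type. By limma 0 of 32 members passed, as did 0% of all tested genes, and 2 had an unadjusted p under 0.05 (background 4.71%). These were ttr-2, at -0.79 (SE 0.31, interval -1.45 to -0.14, adjusted p = 0.995), and ttr-15, at -0.63 (SE 0.27, interval -1.20 to -0.06, adjusted p = 0.995). For both, mutants had the more negative change, which the test across all genes does not separate from the spread. The interaction of ttr-44 was -0.34 (interval -1.02 to 0.34), so a difference between the genotypes in its response was neither shown nor narrowed to 0. Among members with the most extreme values, ttr-29 was at -1.11, ttr-50 at -0.95, ttr-18 at -0.90 and ttr-37 at 0.70, and all of their intervals include 0. Of the 40 genes, 30 had an interaction below 0, 75%, against 50.6% of all genes, with a median of -0.21 against -0.01. Marker lists of tissues differed in this: 6 of 6 pharynx markers had an interaction below 0 (median -0.58) and 6 of 8 intestine markers did (median -0.24). In both lists 0 passed the threshold by limma and 0 had an unadjusted p under 0.05. Neuron markers went the other way, with 2 of 7 below 0 (median 0.22), as did germline and adult markers, with 1 of 6 (median 0.44). Hypodermis had 5 of 9 below 0 (median -0.23), body wall muscle 3 of 6 (median -0.02) and glia 2 of 4 (median -0.03). The mean signal of the pharynx markers was between 5.07 and 6.86 in mutants with tunicamycin, 5.70 and 5.95 in mutants with vehicle, 6.26 and 7.20 in wild type with tunicamycin and 5.75 and 6.46 in wild type with vehicle. The part of these shifts in the ttr values was not tested.

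The loss of manf-1 without stress was compared in vehicle. By limma 0 of 32 ttr genes passed, against 0.00922% of all tested genes, and 1 had an unadjusted p under 0.05 (background 5.4%). This was ttr-46, with 10.19, 10.47 and 10.31 in mutants, against 9.63, 9.19 and 10.19 in wild type. The groups overlap narrowly at 10.19, and the difference was 0.65 (SE 0.27, interval 0.07 to 1.24, adjusted p = 0.91). For ttr-10 all mutant arrays, at 8.20, 8.13 and 7.83, were above the wild-type arrays, at 6.95, 7.53 and 7.78. Its difference was 0.63 (SE 0.32, adjusted p = 0.944).

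For ttr-44 in vehicle, the mutant arrays were also all above the wild-type ones, by 0.27 on average (interval -0.21 to 0.75, adjusted p = 0.971). Groups did not overlap for 2 of the 40 genes as higher which is 5% against 5.51% of all genes, and for 0 as lower, against 5.28%. Of the 40 differences 11 were below 0, 27.5%, against 50% of all genes, with a median of 0.10 against 0.00 over all genes. The most negative values were -0.32 for ttr-1, -0.29 for ttr-17, -0.15 for ttr-20 and -0.14 for ttr-28, all with overlapping groups.

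Under tunicamycin, mutants against wild type again gave 0 of 32 members past the threshold by limma, where 0.0277% of all tested genes passed. Unadjusted p-values under 0.05 were found for ttr-2 and ttr-15, 2 of 32, against 5.8% of all tested genes. The signal of ttr-2, at 9.68, 9.69 and 9.70 in treated mutants, was below that of treated wild type, at 10.19, 10.23 and 10.55. The difference was -0.63 (SE 0.22, interval -1.10 to -0.17, adjusted p = 0.769). For ttr-15 it was -0.42 (SE 0.19, adjusted p = 0.887), with overlapping groups.

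Treated mutants were also lower without overlap for ttr-17, with 8.50, 8.53 and 8.49 against 9.29, 8.71 and 9.55 in treated wild type, and for ttr-32, with 7.61, 7.95 and 7.51 against 8.08, 8.13 and 8.37. Their differences were -0.67 (adjusted p = 0.904) and -0.50 (adjusted p = 0.904). These 3 genes are 7.5% of the 40, against 5.68% of all genes, which is close to the background, and 0 were higher without overlap, against 4.52%. Of the 40 differences 23 were below 0, 57.5%, against 50.4% of all genes. In the same comparison 6 of 6 pharynx markers were below 0 (median -0.88). By limma 0 passed the threshold and 2 had an unadjusted p under 0.05, against 0.0277% and 5.8% of all tested genes. Hypodermis had 6 of 9 below 0 (median -0.36), intestine 5 of 8 (median -0.23) and body wall muscle 4 of 6 (median -0.03). Neuron markers had 3 of 7 below 0 (median 0.15), germline and adult markers 3 of 6 (median 0.07) and glia 2 of 4. Both genotype comparisons share mutant arrays with the tunicamycin comparison in mutants. Under tunicamycin these are the treated mutant arrays, and in vehicle they are the vehicle mutant arrays. A low value of the treated mutant arrays thus enters the comparison under tunicamycin and not the one in vehicle. Averaged over treatments, 0 of 32 members passed for genotype (background 0.0184%), and ttr-46 at 0.49 and ttr-10 at 0.54 had an unadjusted p under 0.05 (background 6.31%), with adjusted p-values of 0.765 and 0.807.

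Many ttr genes lie side by side in the genome. In the RefSeq table of assembly WBcel235, 22 of the 59 lie on chromosome V, 12 on X, 10 on III, 10 on IV, 3 on I and 2 on II. With no other protein-coding gene between them, 28 of the 59 form 12 runs of neighbours, of which 6 have at least 2 tested members. In the run ttr-24, ttr-25 and ttr-26 on chromosome V, the tunicamycin differences in mutants were -0.21, -0.08 and -0.45, and in wild type 0.05, 0.49 and 0.00. The 2 probe sets of ttr-24 had changes of -0.21 and -0.16 in mutants and of 0.05 and 0.01 in wild type.

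On chromosome III, ttr-2 had -0.96 in mutants while its neighbour ttr-1 had -0.05 (interval -0.90 to 0.80), and the probe set shared by ttr-3 and ttr-4 had -0.58. For ttr-32 and ttr-8, also neighbours on III, the mutant differences were -0.47 and -0.86. On chromosome IV the pairs were -0.15 for ttr-16 and -0.18 for ttr-17, and -0.46 for ttr-53 and -0.22 for ttr-54. The run ttr-27, ttr-28 and ttr-29 on V had 0.98, -0.18 and -0.16, with ttr-27 near background and the other 2 widely scattered. No difference between neighbours was tested.

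Beside the 2 family members of known function, a list of engulfment genes and a list of dopaminergic neuron genes were measured. The engulfment machinery around TTR-52 was measured for 10 of 10 genes, among them the receptor ced-1, the transporter ced-7, the adaptor ced-6, the lipid-binding nrf-5 and the phosphatidylserine receptor psr-1. By limma 0 of 10 passed with tunicamycin in mutants and 0 of 10 in wild type, against 1.13% and 0.397% of all tested genes. With shares this low, a count of 0 in a short list does not set it apart from other genes. The median differences were -0.06 and -0.25. The value of ced-1 was -0.11 in mutants (adjusted p = 0.977) and -0.59 in wild type (adjusted p = 0.807), and that of psr-1 0.64 (adjusted p = 0.872) and -0.27 (adjusted p = 0.956). Of 8 dopaminergic neuron genes, 5 were tested and 0 passed in either genotype with tunicamycin, against the same shares of all tested genes. The medians of the 8 were -0.01 in mutants and 0.26 in wild type. The synthesis gene cat-2, the vesicular transporter cat-1 and the receptor dop-2 did not pass the filter on dim signal. The list's remaining transthyretin relative above background, R09H10.3, a homologue of the 5-hydroxyisourate hydrolase, had tunicamycin differences of -0.44 in mutants and -0.44 in wild type, with adjusted p-values of 0.841 and 0.829.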

How the data were processed

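Biotin-labelled cRNA, made from 6 ug of total RNA extracted with Trizol, was hybridised to 1-colour Affymetrix arrays, per the labels' protocols. The deposited values are log2 signals for 22625 probe sets on 12 arrays; the log2 scale was read from their range. The submitters' processing notes name MAS5 with no role or version, so the authors' background correction and normalization are not given in the sources used here. Array medians lay between 3.957 and 4.052, so the values had been scaled between arrays, which assumes that most transcripts keep their level. No genome or sequence was used.

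The 77 control probe sets were left out, and 14709 probe sets above their array's 40th percentile on at least 3 arrays were kept. Gene names come from the platform annotation; all 41 ttr probe sets of 1 gene matched RefSeq (WBcel235) by gene number. Each gene is represented by its kept probe set with the highest mean (10844 genes). A model with 1 mean per group, on all 12 arrays, was fitted in limma 3.58.1 and R 4.3.3 (lmFit, eBayes with a mean-variance trend, 8 residual and 5.93 prior degrees of freedom) for 7 contrasts, two-sided, with Benjamini-Hochberg adjustment over all kept probe sets and a threshold of 0.05. Levels are mean ± SD of 3 arrays. The script was tested on simulated data with known changes. For tunicamycin in mutants, over 14709 simulated probe sets, it recovered 6% of 2-fold and 46% of 4-fold changes. Of its 53 calls 1 was false. A count of 0 past the threshold therefore does not show that the genes kept their level.

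Members, lists, named genes and alternatives were chosen with earlier results of these data known. Named genes were those past the threshold, the 4 most positive and 4 most negative per contrast, the 6 highest and 4 lowest signals, ttr-52 and ttr-33; the text gives part of them. Alternatives were other normalizations, an offset, filters, eBayes settings, the fit of only the groups compared, a replicate block, averaged probe sets, another threshold, and left-out arrays. A promoter motif search and a list of further transthyretin-like genes by product name, both planned, were not run.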

Additional observations from a re-analysis of the deposited data

Results flagged for a closer look

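The 3 probe sets that name 2 ttr genes each entered none of the comparisons, yet all exceeded the background percentile on all 12 arrays, which is why they are listed. The probe set of ttr-30 and ttr-59 had a mean signal of 7.90, with differences with tunicamycin of -0.08 in mutants and 0.58 in wild type. That of ttr-3 and ttr-4 had 5.93, with differences of -0.58 and 0.22. That of ttr-49 and ttr-40 had 4.08, with differences of 0.05 and 0.06. None of these differences was tested as a member, and the signal cannot be split between the genes of a pair. Groups of 3 arrays are too small for a test of single outlying arrays, and no member had an interaction past the threshold.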

How the results depend on the processing

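Of 1257 single-gene values under the alternatives, 1214 kept their direction and side of the threshold, 13 lost and 7 gained a call, and 23 changed sign. The call of ttr-44 averaged over genotypes was past the threshold in 21 of 22 settings, and its call in mutants in 11 of 23 (adjusted p up to 0.158). In mutants the count of ttr genes past the threshold, 1 as reported, was 2 with centred array medians, the 60th percentile filter, robust eBayes, the replicate block and averaged probe sets, since ttr-2 then also passed. It was 0 with no filter, without the trend and without the 4 arrays numbered 2, and lay between 0 and 1 when single arrays were left out. A count of 1 was not always ttr-44. Without the mutant vehicle array 3 the gene was ttr-2 (limma adjusted p = 0.0397), while ttr-44 had 0.138. Without the treated mutant array 1 it was also another member, as ttr-44 had 0.123. Averaged over genotypes the count was 1 as reported and 0 without the trend. It was also 0 when calls needed a 2-fold change and an unadjusted p under 0.05. With single arrays left out it lay between 1 and 2, since ttr-27 also passed without the treated mutant array 2. That call is no evidence of a rise, because only treated arrays brought ttr-27 past the filter. The cause was not tested.

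The replicate numbers are shared by all groups, but 7 of 18 correlations between same-numbered arrays were over 0.1 (range -0.08 to 0.23), so the numbers were not taken to pair the samples. The arrays numbered 2 do share a feature across groups, the lower 3′ minus 5′ signal, and 4 of their 6 correlations were over 0.1. The replicate block left the change of ttr-44 in mutants at -1.04 and past the threshold, and moved the adjusted p of ttr-2 there to 0.0491; it changed no other call of a named ttr gene.

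The sign changes were in values that did not pass. Without the arrays numbered 2, ttr-28 had 0.75 with tunicamycin in wild type, 0.94 for genotype with vehicle and -2.18 for the interaction, ttr-31 had an interaction of -0.15, and ttr-8 had -0.29 for genotype averaged over treatments. With single arrays left out, ttr-28 ranged from -1.87 to 0.33, from -1.499 to 0.70 and from -0.51 to 1.69 in those 3 comparisons, ttr-20 from -0.28 to 0.072 for genotype with vehicle, ttr-31 from -0.095 to 0.35 for the interaction, and ttr-29 from -0.043 to 0.87 for tunicamycin averaged over genotypes.

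The family's median difference in mutants lay between -0.28 and -0.11 over 18 settings. Over all probe sets the mutant count of 158 was 77 without the arrays numbered 2, and the wild-type count of 58 was 35 without them and 25 with only the groups compared. The averaged tunicamycin count of 280 was 152 without them, and under tunicamycin the genotype count of 6 ranged from 0 to 11 over the adjusted settings. Signal at or below background on some or all arrays limits ttr-8, ttr-27, ttr-28, ttr-29, ttr-50 and the 8 untested members.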
